A study of Mus musculus with 57 samples.

Results

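Six2, Six4 and Six5, which encode homeodomain transcription factors of the sine oculis family, and Eya1, Eya2, Eya3 and Eya4, which encode their eyes absent cofactors, were examined in chromatin profiles of mouse brain cortex and gastrocnemius muscle. These 7 genes, of 24655 curated RefSeq genes on the autosomes and X, were listed by name and not by any value measured here. The profiles are ChIP-seq libraries, in which DNA bound to an antibody-selected histone mark is sequenced, for trimethylated lysine 4, acetylated lysine 27 and trimethylated lysine 27 of histone H3 (H3K4me3, H3K27ac and H3K27me3). All 57 libraries come from 10 PSAPP mice, which carry mutant presenilin and amyloid precursor protein transgenes and model Alzheimer's disease, killed at 13 months of age. The promoters that drive the transgenes are not given in the sources used here. All mice ate a modified AIN-93 diet and were housed singly from 6 months of age, and no mouse without the transgenes is among them, so the comparison is between tissues of transgenic animals. Each mark has 9 cortex libraries and 10 gastrocnemius libraries, and 9 mice gave both tissues. Mice of both sexes were profiled, but the labels do not assign sex to a library and the sexes were not compared.

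Six-family proteins bind DNA and Eya proteins, which also carry a phosphatase domain, join them to activate transcription. Together with Pax and Dach proteins they form a network that acts in muscle precursors, kidney, ear and other organs, and in adult muscle the Six-family and Eya proteins are known to drive genes of fast fibres. H3K4me3 marks promoters that are active or poised, H3K27ac marks active promoters and enhancers, and H3K27me3 is laid down by the Polycomb complex at silenced developmental genes. Promoters that carry H3K4me3 and H3K27me3 together are known as bivalent.

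The unit throughout is CPM, the reads of called peaks in a window per 1000000 reads in the autosomal peaks of that library, with the reads of a peak shared evenly over its length. A value of 0 means that no peak was called in the window, which sets no upper limit on the mark. Reads in peaks per library ran from 9159253 to 18993192 for H3K4me3, 3935242 to 27268192 for H3K27ac and 2994888 to 18247332 for H3K27me3. These are whole tissues, in which fewer cells of a type and less mark per cell cannot be told apart. The tissues matched their labels at most marker genes. Of 10 cortex marker genes with an H3K4me3 peak at the transcription start site (TSS), 9 were lower in gastrocnemius, with Camk2a the exception at the TSS used here, and Aqp4 had no peak in any library. The cortex markers together held 113 to 131 CPM in cortex and 26.9 to 35.7 CPM in gastrocnemius. Of 6 muscle fibre markers 5 were higher in gastrocnemius and Mylpf was lower, with 33.2 to 55.9 and 99.5 to 134 CPM in all. Markers of other cells of muscle also carried H3K4me3 in gastrocnemius. The satellite cell genes Pax7 and Myf5 together had 0 CPM in every cortex library and 12.6 to 19.9 CPM in gastrocnemius, and the endothelial genes Cdh5 and Tek together had 12.01 to 18.7 and 27.7 to 48.9 CPM, both called higher. The interstitial cell gene Pdgfra was higher (4.47 to 12.9 and 10.6 to 18.9 CPM) and the fat cell gene Adipoq had no peak. What part these cells have in the values below was not tested. The 6 libraries per mark whose deposited names carry an S number (cortex replicates 8 and 9, gastrocnemius replicates 5, 6, 9 and 10) are named where a result rests on them.

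Promoter sequences are shown because the genes differed in H3K27me3 at the TSS, a mark known to favour CpG-rich promoters. RefSeq promoters on GRCm38.p6 (mm10), from 250 bases before to 50 bases after the TSS, were available for 5 of the 7 genes, and Eya1 and Eya2 have no entry. Capitals mark CpG dinucleotides, and each sequence reads 5′ to 3′ on the strand of the gene. Six2 lies at chr17:85688205-85688504 on the minus strand, Six4 at chr12:73113376-73113675 on the minus strand, Six5 at chr7:19094294-19094593 on the plus strand, Eya3 at chr4:132638796-132639095 on the plus strand and Eya4 at chr10:23349894-23350193 on the minus strand.
Six2: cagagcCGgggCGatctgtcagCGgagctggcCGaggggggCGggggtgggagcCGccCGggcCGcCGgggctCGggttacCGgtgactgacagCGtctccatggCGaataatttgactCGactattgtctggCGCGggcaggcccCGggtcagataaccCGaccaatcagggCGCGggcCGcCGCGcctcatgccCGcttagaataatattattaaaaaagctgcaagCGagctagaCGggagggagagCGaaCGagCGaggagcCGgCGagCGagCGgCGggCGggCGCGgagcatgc
Six4: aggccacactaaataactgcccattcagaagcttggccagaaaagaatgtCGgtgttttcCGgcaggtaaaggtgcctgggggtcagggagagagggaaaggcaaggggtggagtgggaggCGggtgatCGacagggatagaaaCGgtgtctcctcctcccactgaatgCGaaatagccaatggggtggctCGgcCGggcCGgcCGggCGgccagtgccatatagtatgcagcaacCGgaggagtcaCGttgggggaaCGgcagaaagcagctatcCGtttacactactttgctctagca
Six5: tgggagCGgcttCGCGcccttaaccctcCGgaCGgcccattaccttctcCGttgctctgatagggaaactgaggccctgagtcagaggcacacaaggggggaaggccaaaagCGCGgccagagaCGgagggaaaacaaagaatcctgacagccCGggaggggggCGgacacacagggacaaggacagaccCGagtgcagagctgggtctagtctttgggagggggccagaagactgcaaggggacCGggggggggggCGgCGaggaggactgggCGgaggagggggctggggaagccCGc
Eya3: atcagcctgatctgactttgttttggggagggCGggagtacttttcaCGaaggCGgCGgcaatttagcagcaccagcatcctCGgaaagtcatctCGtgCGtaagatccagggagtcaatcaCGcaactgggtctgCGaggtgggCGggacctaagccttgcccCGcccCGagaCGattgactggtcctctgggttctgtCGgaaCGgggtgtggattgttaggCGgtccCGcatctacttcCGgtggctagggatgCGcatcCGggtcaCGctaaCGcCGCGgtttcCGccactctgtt
Eya4: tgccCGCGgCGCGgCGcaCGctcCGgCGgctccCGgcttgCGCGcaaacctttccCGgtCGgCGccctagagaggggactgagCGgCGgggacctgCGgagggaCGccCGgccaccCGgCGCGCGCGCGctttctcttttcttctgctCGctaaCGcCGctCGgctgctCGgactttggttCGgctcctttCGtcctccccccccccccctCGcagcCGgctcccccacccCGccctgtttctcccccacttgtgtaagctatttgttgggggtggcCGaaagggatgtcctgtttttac
Six2 held 37 CpGs and Eya4 36, more than 94.2% and 93.6% of the 31396 autosomal promoters in the table, whose median was 7. Eya3 held 25 CpGs, Six5 17 and Six4 15, more than 81.1%, 68.0% and 64.8% of promoters. In these 5 promoters, the genes with H3K27me3 at the TSS in every cortex library (Six2, Six4 and Eya4) included those with the most CpGs and the one with the fewest.

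The combination of marks at the TSS differed between the genes and between the tissues. All 7 genes had an H3K4me3 peak within 1 kb of the TSS in every library of both tissues, except Eya2 in cortex replicate 3. At Six2, peaks of both H3K4me3 and H3K27me3 were called in all 9 cortex and all 10 gastrocnemius animals. Each library holds 1 mark from whole tissue, so whether both marks sit in the same cells was not tested. Both were called at Eya2 in 8 of 9 and 10 of 10 animals, Eya4 in 9 of 9 cortex and 0 of 10 gastrocnemius animals, Six4 in 9 of 9 and 3 of 10, and Eya1 in 6 of 9 and 0 of 10. Six5 had both marks in 1 cortex animal and Eya3 in none. Among all 23626 autosomal genes, 3.5% had both marks in every animal of both tissues, as Six2 did, and 1.13% had them in every cortex animal and in no gastrocnemius animal, as Eya4 did.

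**Figure D1:**
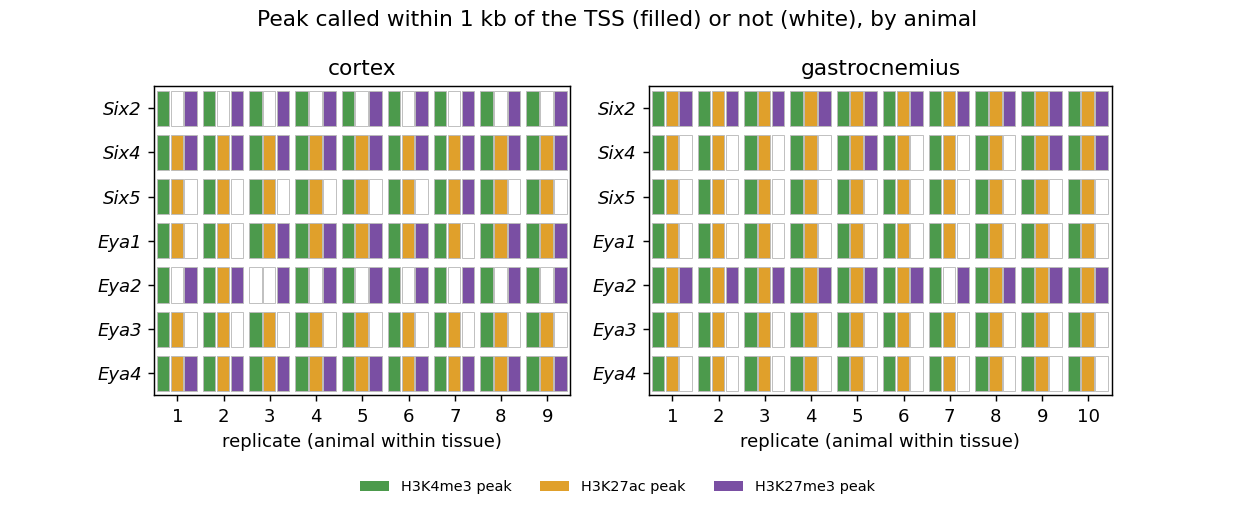
Peaks called within 1 kb of the TSS of each gene (rows) in each animal (columns), for cortex (left, 9 animals) and gastrocnemius (right, 10 animals). Filled boxes are called peaks of H3K4me3 (green), H3K27ac (orange) and H3K27me3 (purple), white boxes are none. H3K27me3 at Eya4 was called in 9 of 9 cortex and 0 of 10 gastrocnemius animals, and H3K27ac at Six2 in 0 of 9 and 10 of 10.

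H3K27me3 set the cortex apart at 3 genes. At Eya4, which is known from inherited deafness and cardiomyopathy, the 9 cortex libraries held 5.29, 7.79 and 10.4 CPM (lowest, median and highest), and no gastrocnemius library had a peak. At Eya1, the gene of branchio-oto-renal syndrome, 6 cortex libraries held 2.70 to 8.64 CPM, cortex replicates 1, 2 and 7 had no peak, and no gastrocnemius library had one. At Six4, which acts in muscle precursors, the cortex libraries held 2.17, 9.21 and 13.2 CPM. Of the gastrocnemius libraries, replicates 5, 9 and 10 held 2.68, 3.48 and 5.60 CPM and the other 7 had no peak. These 3 libraries all carry an S number, and without the libraries of that kind Six4 had peaks in 7 of 7 cortex and 0 of 6 gastrocnemius libraries. The S number libraries are also the deepest gastrocnemius libraries for H3K27me3, with 7710285 to 18247332 reads in peaks against 2994888 to 5862998 in the other 6, and replicate 6, with 7868163 reads, had no Six4 peak. The part of depth in the Six4 peaks was not tested. The number of libraries with a peak differed between the tissues at all 3 genes by Fisher's exact test (two-sided, adjusted p = 0.000176 for Eya4, 0.0145 for Eya1 and 0.0145 for Six4). Of the 8417 genes tested this way, 15.1% were called with more cortex libraries, against 3 of the 5 Six-family and Eya genes tested. Eya1 was no longer called without the S number libraries or with equally many top-scoring peaks per library. In reads of these peaks, edgeR called Eya4, Eya1 and Six4 lower in gastrocnemius (adjusted p = 2.41e-07, 0.00188 and 0.0338). Libraries without a peak enter that test as 0, so it rests on the same peak calls and is not separate evidence. The mean at Six4 fell from 8.35 ± 3.30 CPM (SD, n = 9) to 1.18 ± 2.02 CPM (n = 10).

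At Six2, which is known for keeping kidney progenitors undifferentiated, H3K27me3 was present in every library but lower in gastrocnemius. Cortex libraries held 12.3, 15.4 and 19.4 CPM and gastrocnemius libraries 3.36, 9.08 and 13.8 CPM, so that the ranges overlapped through gastrocnemius replicates 2 and 8. The log2 difference, gastrocnemius minus cortex, was -0.85 ± 0.20 (SE, adjusted p = 0.00209). Eya2, known from muscle precursors, held 8.09, 8.22 and 10.6 CPM in cortex and 3.99, 7.82 and 11.6 CPM in gastrocnemius, and the difference did not pass the test (-0.25 ± 0.18, adjusted p = 0.298), though it did under TMM scaling (-0.24) and when each TSS was credited with all reads of its peaks (-0.98). Six5, which lies beside the myotonic dystrophy kinase gene, had an H3K27me3 peak only in cortex replicate 7 (7.39 CPM), and Eya3, a broadly expressed Eya gene, had none in any of the 19 libraries. These 2 genes were not tested. Across the 8417 genes tested at the TSS, 19.3% were lower and 24.8% higher in gastrocnemius, while 4 of the 5 Six-family and Eya genes tested were lower and none was higher. The median of all genes was -0.02, and 0.10 with DESeq2 size factors.

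The H3K27me3 regions around these promoters differed in extent. At Six2 the peak over the TSS spanned 26.8 to 53.8 kb in cortex and 5.40 to 57.6 kb in gastrocnemius, within a merged region of 237 kb (chr17:85588801-85826000) that also holds the TSSs of 2 other genes. That region held 1167 ± 73.3 CPM in cortex (SD, n = 9) and 724 ± 75.9 CPM in gastrocnemius (n = 10), a log2 difference of -0.69 ± 0.06 (adjusted p = 1.08e-08). At Eya2 H3K27me3 covered long stretches of the gene. Beyond 1 kb of the TSS, peaks covered 94.6, 102.0 and 129.2 kb of it in cortex and 67.2, 119.9 and 130.4 kb in gastrocnemius, with 429 ± 49.0 and 420 ± 76.5 CPM (log2 difference -0.03 ± 0.11, adjusted p = 0.819). Within this span the parts differed in direction. The site from 21.4 kb downstream of the TSS (chr2:165616401-165670600) was lower in gastrocnemius (-0.42 ± 0.12, adjusted p = 0.00646), and the sites at chr2:165679401-165722400 and chr2:165722801-165776400 were higher (0.35 ± 0.12 and 0.61 ± 0.18, adjusted p = 0.0195 and 0.00832). At Eya4 the cortex held 92.5 ± 22.6 CPM over the gene body, and at Eya1 31.6 ± 24.3 CPM, and no gastrocnemius library had a peak over either gene. The merged site over the Eya1 TSS (chr1:14287001-14317600) had a peak in all 9 cortex libraries, with 39.2 ± 25.1 CPM. The 8 H3K27me3 sites at or within 10 kb of Eya4 were all called lower in gastrocnemius, and 7 of them had no gastrocnemius peak. Of these 7, the site over the TSS had a peak in all 9 cortex libraries and the other 6 in 3 to 6 of them. These 7 entered the test through cortex peaks alone, so a call at them could only be lower. The eighth, outside the 3′ end of the gene (chr10:23055201-23102800), held 87.5 ± 17.2 CPM in cortex and 28.6 ± 9.24 CPM in gastrocnemius. At Six4 the gene body held 21.2 ± 11.3 CPM in cortex and 2.36 ± 3.88 CPM in gastrocnemius, again only in replicates 5, 9 and 10. In all, edgeR called gene bodies lower in gastrocnemius at 28.1% of 9212 genes and at Six2, Six4, Eya1 and Eya4 of the 5 genes tested. Six2 (-0.60 ± 0.19, adjusted p = 0.0145) was not called without the S number libraries (-0.38). Over all libraries edgeR called consensus sites (overlapping peaks of all libraries joined, kept where 3 or more libraries of 1 tissue had one) lower at 33.2% of 32479 sites and at 13 of the 17 at these genes. Of the 17, 8 had no gastrocnemius peak and were kept through cortex alone.

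H3K27ac at the TSS was found in every library of both tissues at Six4, Six5, Eya1, Eya3 and Eya4, and mainly in gastrocnemius at Six2 and Eya2. At Six2 no cortex library had a peak, whereas the gastrocnemius libraries held 3.12, 4.36 and 5.34 CPM (Fisher's exact test, two-sided, adjusted p = 0.000179). At Eya2 a peak was called in cortex replicate 2 alone (2.36 CPM), and the gastrocnemius libraries held 0, 3.38 and 5.23 CPM, with no peak in replicate 7 (adjusted p = 0.0105). In reads, which are 0 where no peak was called, Eya2 rose from 0.262 ± 0.786 to 3.08 ± 1.63 CPM (edgeR adjusted p = 0.0213). Both Eya2 calls were lost without the S number libraries (Fisher 1 of 7 and 5 of 6 libraries) and without the lowest-scoring 25% of peaks. Of 16955 genes, 4.3% were called with more gastrocnemius libraries.

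The other H3K27ac differences in the window of 1 kb on either side of the TSS were smaller. Eya1 rose from 6.07 ± 1.48 CPM in cortex (range 4.43 to 8.48) to 10.5 ± 2.12 CPM in gastrocnemius (range 7.74 to 13.9), a 1.74-fold difference (log2 0.80 ± 0.14, adjusted p = 9.13e-05). Eya4 rose from 6.57 ± 0.79 to 9.26 ± 1.99 CPM (log2 0.48 ± 0.12, adjusted p = 0.00168). Six4 rose from 6.86 ± 1.17 to 9.33 ± 2.0 CPM (log2 0.44 ± 0.13, adjusted p = 0.00689), and Six5 from 7.81 ± 0.80 to 9.14 ± 1.22 CPM (log2 0.23 ± 0.09, adjusted p = 0.0296), a call that was lost with equally many top-scoring peaks per library (0.16). In each of these 4 genes the ranges of the tissues overlapped. The size depends on the window, since the reads of a peak are shared evenly over its length and the peaks were longer in gastrocnemius. At Six4 the H3K27ac peak over the TSS spanned 3 to 4 kb in cortex and 12.4 to 28.8 kb in gastrocnemius. When each TSS was credited with all reads of its peaks, the log2 differences were 2.37 at Six4, 2.21 at Eya1, 1.87 at Eya4 and 0.78 at Six5, all called. Eya3 was lower in gastrocnemius, at 8.05 ± 1.90 against 10.1 ± 2.52 CPM (log2 -0.33 ± 0.16, adjusted p = 0.0941), but this did not hold, since it was not called under TMM or DESeq2 scaling, with the animal as a block (log2 -0.35) or when any of 12 single libraries was left out. With all reads of its peaks Eya3 turned to higher in gastrocnemius, by 0.56 on the log2 scale, and was called. Across all 16955 genes tested, the median log2 difference was -0.32, with 12.5% called higher and 50.5% lower, and TMM scaling moved that median to -0.04 and the share of calls that were higher from 19.9% to 44.0%. Against that, 6 of the 7 genes were called higher. Relative to the median of all genes, Eya1 stood 1.12 log2 units higher, Eya4 0.80, Six4 0.75 and Six5 0.55, and Eya3 stood at -0.01.

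**Figure D2:**
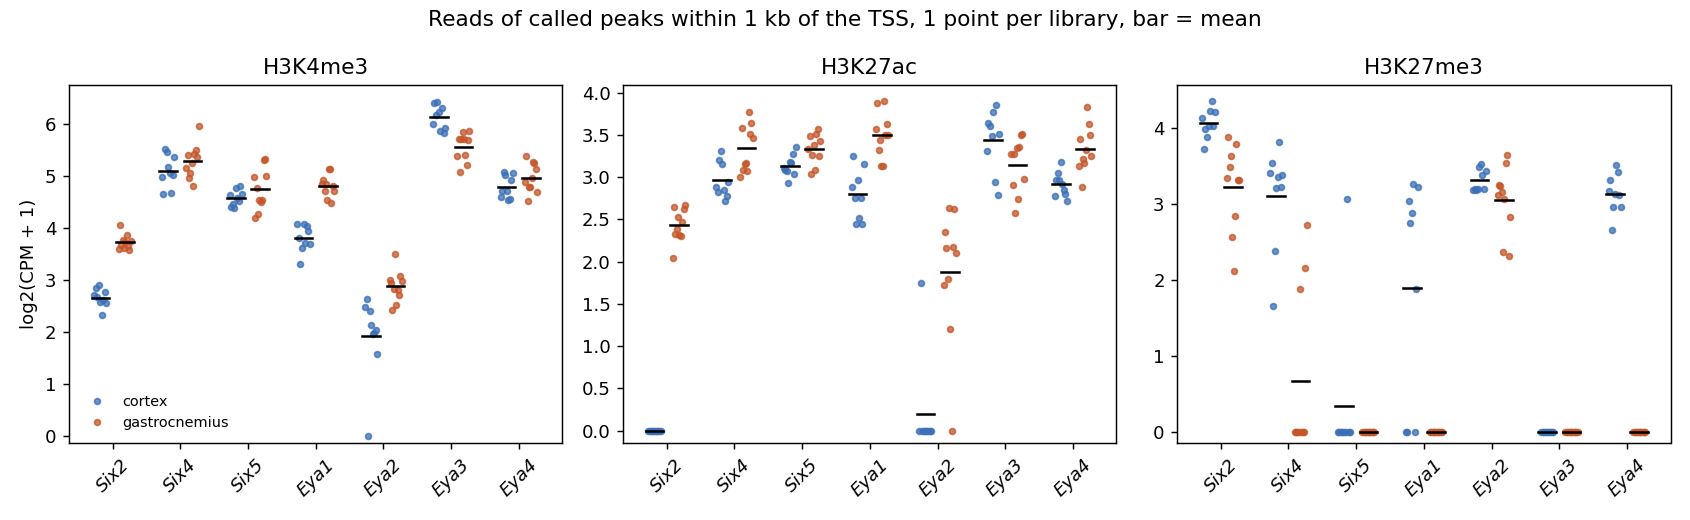
Reads of called peaks within 1 kb of the TSS, as log2(CPM + 1), for each gene in cortex (blue, 9 libraries) and gastrocnemius (orange, 10 libraries), with 1 panel per mark and its own vertical scale. Points are libraries and bars are means. All gastrocnemius libraries lie above all cortex libraries for H3K4me3 at Six2 and Eya1 (6.45% of all genes), and Eya3 is the gene with the highest H3K4me3 mean in both tissues.

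H3K4me3 at the TSS ordered the genes alike in both tissues at the top and the bottom. In cortex Eya3 held 69.6 ± 11.3 CPM in the 2 kb window, followed by Six4 (33.9 ± 7.40), Eya4 (27.02 ± 4.32), Six5 (22.9 ± 2.5), Eya1 (13.1 ± 2.35), Six2 (5.35 ± 0.74) and Eya2 (3.15 ± 1.54). The libraries of neighbours in this order overlapped for Six4 and Eya4, Eya4 and Six5, and Six2 and Eya2. In gastrocnemius the order was Eya3 (46.9 ± 8.65), Six4 (38.9 ± 9.54), Eya4 (30.7 ± 6.24), Eya1 (27.3 ± 4.29), Six5 (26.6 ± 7.77), Six2 (12.3 ± 1.43) and Eya2 (6.48 ± 1.65), and the first 5 overlapped with their neighbours. Six2 and Eya2, which had H3K27me3 in both tissues, had the lowest H3K4me3 of the 7 in both. Six4 and Eya4, which had H3K27me3 in every cortex library, came next after Eya3 in cortex H3K4me3.

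Between the tissues, Six2 rose from 4.01, 5.32 and 6.42 CPM in cortex to 11.0, 11.96 and 15.6 CPM in gastrocnemius, 2.29-fold (log2 1.20 ± 0.11, adjusted p = 3.16e-09). Eya1 rose from 8.89, 12.9 and 15.7 CPM to 21.4, 27.3 and 34.2 CPM, 2.08-fold (log2 1.05 ± 0.11, adjusted p = 4.21e-08). The tissues did not overlap at either gene, as at 6.45% of the 15747 genes tested, where every gastrocnemius library lay above every cortex library. Eya2 rose from 0, 3.11 and 5.17 CPM to 4.35, 6.37 and 10.3 CPM (log2 1.04 ± 0.40, adjusted p = 0.0278), with overlap, and was not called without the S number libraries (log2 0.83) or with equally many top-scoring peaks. Eya3 fell from 55.5, 71.3 and 85.1 CPM to 32.5, 51.1 and 56.8 CPM (log2 -0.57 ± 0.12, adjusted p = 0.00027), which was -0.22 relative to the median of all genes and was not called with DESeq2 size factors or DESeq2 (log2 -0.21 in both). With all reads of its TSS peaks the Eya3 difference was -0.08, still called. Six4, Six5 and Eya4 differed by 0.20 ± 0.14, 0.21 ± 0.14 and 0.18 ± 0.12 and did not pass the test, and each was called higher under TMM scaling (0.48, 0.51 and 0.48), DESeq2 size factors and DESeq2. Leaving out gastrocnemius replicate 2 or 4 also brought Six5 past the threshold (0.27 and 0.26), and leaving out gastrocnemius replicate 3, or all S number libraries, did so for Eya4 (0.23 and 0.30). The scaling matters here because the median of the 15747 genes tested was -0.34, with 15.3% called higher and 60.4% lower, and TMM scaling moved it to -0.04 and the share of calls that were higher from 20.2% to 45.3%. Relative to that median, Six4, Six5 and Eya4 stood 0.54, 0.56 and 0.53 log2 units higher.

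**Figure D3:**
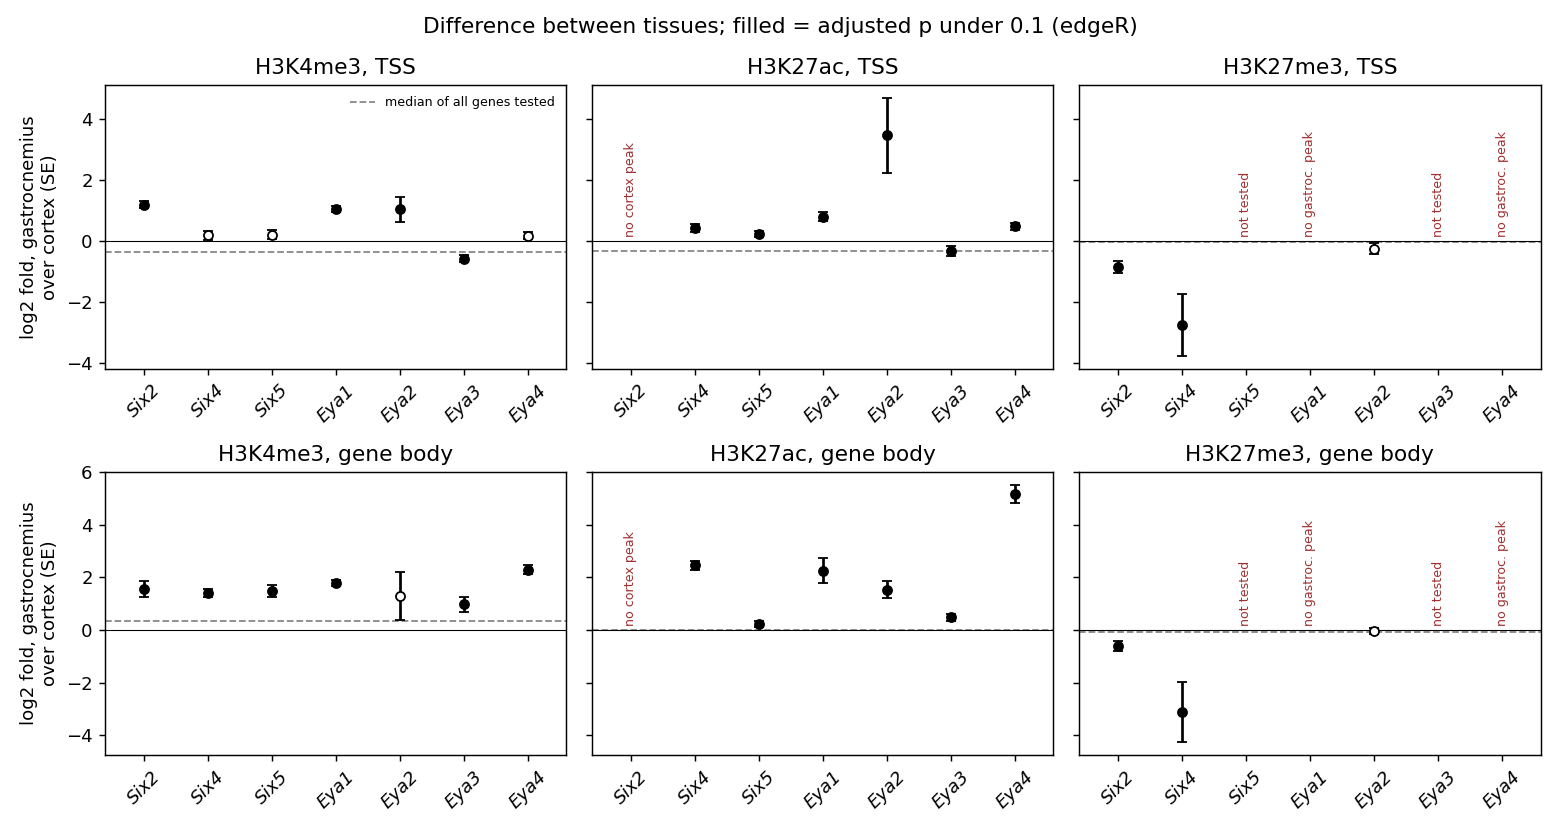
Log2 fold difference of gastrocnemius over cortex with its standard error, at the TSS (top row) and over the gene body (bottom row), for the 3 marks. Filled points passed an adjusted p of 0.1, the dashed line is the median of all genes tested, and genes without a fold are named by the tissue that lacked peaks. For H3K27ac over the gene body, Eya4 stands at 5.19 and Six5 at 0.23.

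The H3K4me3 peak over the TSS was wider in gastrocnemius at 6 of the 7 genes, as it was at 61.5% of the 15747 genes tested. H3K4me3 peaks covered 70.7 to 108 Mb of the autosomes in gastrocnemius and 52.3 to 66.9 Mb in cortex, and the median gene was wider by 0.93 kb in gastrocnemius. At Eya1 the widest peak within 1 kb of the TSS spanned 3.40 to 4.2 kb in cortex and 8.80 to 11.2 kb in gastrocnemius, a difference of 6.10 kb (exact permutation test, two-sided, p adjusted over all genes tested = 9.17e-05). In every cortex library, called peaks covered more of the Eya1 body (3.998 to 6.998 kb) than the widest TSS peak spans, so further peaks were called there. The width is that of 1 peak and leaves these out. At Six4 it spanned 3.2 to 4.2 kb and 5 to 12.6 kb, and at Eya4 2.60 to 3.60 kb and 3.80 to 7.20 kb (exact permutation test, adjusted p = 0.000184 and 0.000226). At these 3 genes no gastrocnemius library overlapped the cortex, which was so for 9.97% of the 13194 genes with an H3K4me3 TSS peak in every library. Six5 (mean 3.80 ± 0.28 and 7.94 ± 3.84 kb), Eya3 (2.36 ± 0.54 and 3.56 ± 0.88 kb) and Six2 (4.40 ± 1.20 and 6.08 ± 1.22 kb) were also wider by the same exact permutation test (adjusted p = 0.000818, 0.00463 and 0.0135), with overlap, and Eya2 did not pass it (2.40 ± 1.17 and 3.06 ± 1.10 kb, adjusted p = 0.261). Since reads are shared evenly over a peak, a wider peak spreads them beyond the 1 kb window. When each TSS was credited with all reads of its peaks, Eya1 differed by 2.05, Six2 by 1.68, Eya2 by 1.18, Six5 by 1.15, Eya4 by 1.12, Six4 by 0.99 and Eya3 by -0.08 on the log2 scale, all called.

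**Figure D4:**
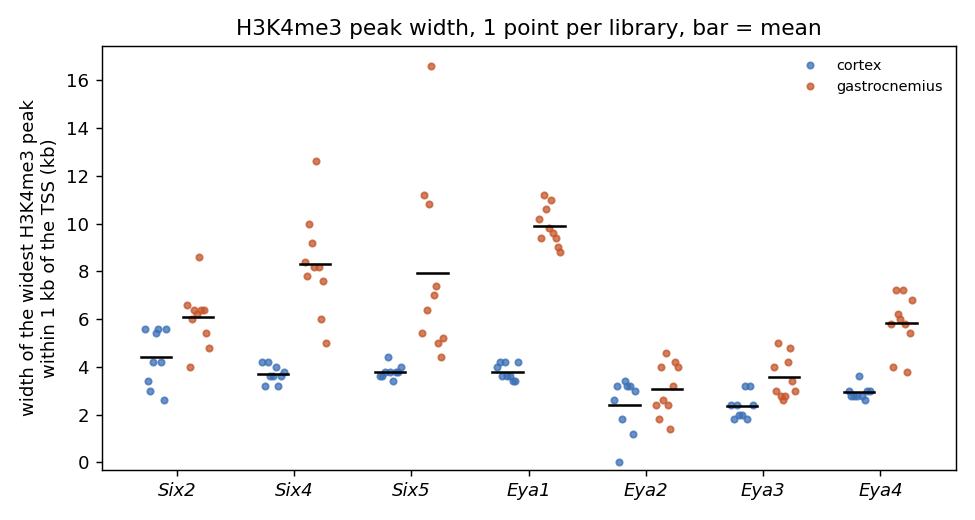
Width in kb of the widest H3K4me3 peak within 1 kb of the TSS of each gene, in cortex (blue, 9 libraries) and gastrocnemius (orange, 10 libraries). Points are libraries, bars are means, and 0 stands for no peak. Gastrocnemius libraries lie above every cortex library at Six4, Eya1 and Eya4.

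Over the gene bodies, defined as the annotated gene beyond 1 kb of the TSS, both active marks were higher in gastrocnemius at most of the genes. For H3K4me3, Eya4 held 12.1 ± 3.49 CPM in cortex and 59.5 ± 12.7 CPM in gastrocnemius, 4.89-fold (log2 2.29 ± 0.17, adjusted p = 3.15e-10), over 0.742 to 1.54 kb and 4.74 to 8.94 kb of called peak. With all reads of the overlapping peaks the log2 difference was 1.30. Per kb of called peak, Eya4 held 13.6 CPM in cortex and 9.06 in gastrocnemius, so its difference lies in the length of called peak. This density also fell at Six4 (21.2 to 17.4) and Eya3 (39.3 to 24.9), and it rose at Eya1, Eya2, Six2 and Six5. Eya1 differed by 1.79 ± 0.12, Six2 by 1.56 ± 0.30, Six5 by 1.47 ± 0.23 and Six4 by 1.4 ± 0.14, with no overlap of the tissues at these 5 genes (13.5% of all genes tested had every gastrocnemius library above every cortex library), and Eya3 by 0.98 ± 0.29. Eya2 differed by 1.30 ± 0.92 and did not pass the test (adjusted p = 0.231). Of 15549 genes, 40.9% were called higher, against 6 of these 7, and the median of all was 0.35 (0.17 under TMM scaling). The Eya3 and Six5 values were reads of the TSS peak that extended past 1 kb, and with all reads of the overlapping peaks they were -0.08 and 1.15. Of the 7 genes, Eya4 alone had H3K4me3 consensus sites inside the gene other than the one over the TSS, and no separate consensus site stands behind the body values of the other 6. At Eya1 more than 1 cortex peak was called within the site over the TSS.

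For H3K27ac the gene body difference was larger than for H3K4me3 at Eya4, Six4, Eya1 and Eya2 and smaller at Eya3 and Six5, in values set side by side with no test between the marks. Eya4 held 1.504, 1.85 and 6.25 CPM in cortex and 67.0, 99.7 and 225 CPM in gastrocnemius, 36.4-fold (log2 5.19 ± 0.35, adjusted p = 7.61e-11), over 0.542 to 3.54 kb and 29.5 to 109.7 kb of called peak. With all reads of the overlapping peaks, which adds the part of the TSS peak inside 1 kb, the log2 difference was 3.58. Six4 held 7.17, 9.56 and 14.9 CPM and 45.01, 54.9 and 80.97 CPM, 5.50-fold (log2 2.46 ± 0.16, adjusted p = 5.03e-11), over 1.62 to 2.62 kb and 10.2 to 12.8 kb of called peak. Eya1 held 0, 15.5 and 29.3 CPM and 42.1, 62.4 and 127 CPM, 4.75-fold (log2 2.25 ± 0.47, adjusted p = 0.000333). Every gastrocnemius library lay above every cortex library at 17.2% of all genes tested, at these 3 genes and at Six2, where no cortex library had a peak and the gastrocnemius libraries held 0.107 to 5.90 CPM, all of it from the peak over the TSS. Eya2 held 10.5, 17.5 and 39.6 CPM and 30.4, 40.3 and 119 CPM (log2 1.53 ± 0.32, adjusted p = 0.000332). Its 3 highest gastrocnemius values, 119, 111 and 79.005 CPM, were replicates 5, 9 and 10, which carry an S number, and the difference was 0.77 and still called without libraries of that kind. Per kb of called peak, cortex and gastrocnemius held 3.02 and 2.32 CPM at Eya4 and 4.93 and 4.66 at Six4. At Eya1 they held 2.36 and 3.29 CPM per kb, and at Eya2 2.08 and 1.69. Uncalled sequence counts as 0, so at Eya4, Six4 and Eya2 the difference lies in the length of called peak. Eya3 differed by 0.48 ± 0.15 (adjusted p = 0.00797) and Six5 by 0.23 ± 0.10 (adjusted p = 0.0622), and Six5, whose reads were again those of the peak over the TSS, was not called with the animal as a block (0.21), under TMM scaling, or without cortex replicate 4 or gastrocnemius replicate 7 or 8. Of 17071 genes 35% were called higher, against all 7 of these.

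**Figure D5:**
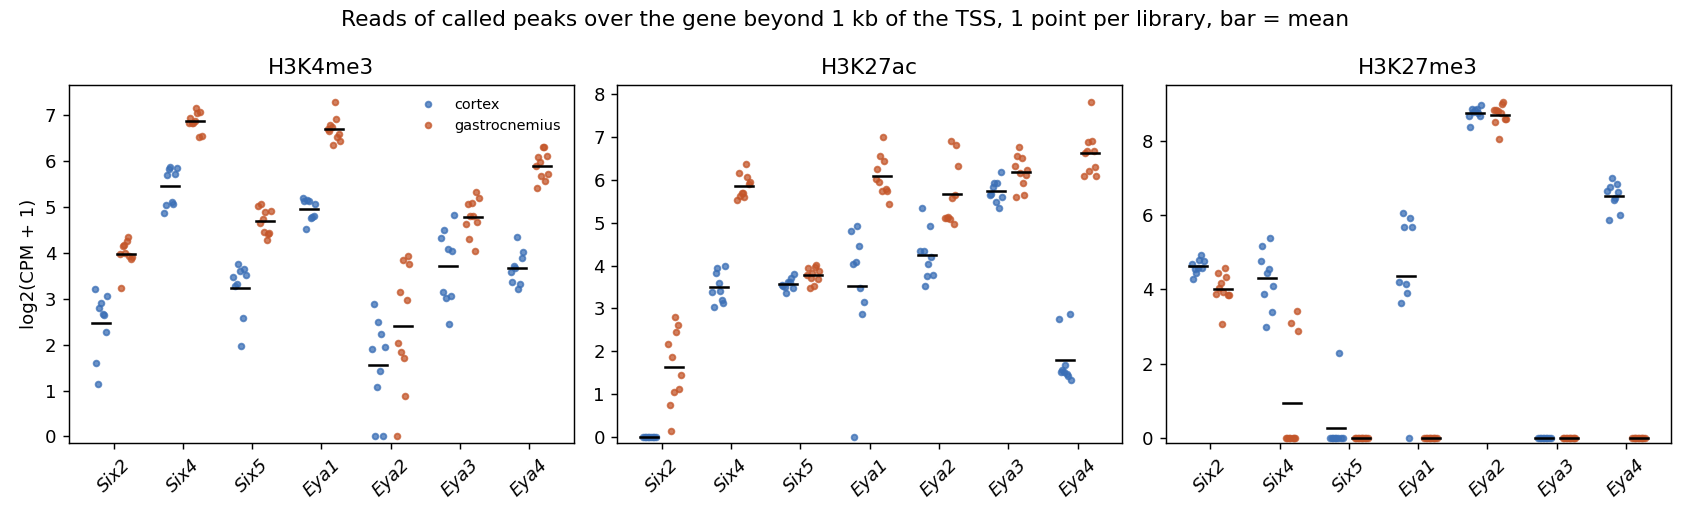
Reads of called peaks over the gene beyond 1 kb of the TSS, as log2(CPM + 1), for each gene in cortex (blue, 9 libraries) and gastrocnemius (orange, 10 libraries), with 1 panel per mark and its own vertical scale. Points are libraries and bars are means. H3K27ac at Eya4 lies between 1.504 and 6.25 CPM in cortex and between 67.0 and 225 CPM in gastrocnemius, and H3K27me3 at Eya2 is high in both tissues.

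The H3K27ac difference at Eya4 was spread along the gene. All 8 H3K27ac sites at or within 10 kb of the gene were called higher in gastrocnemius, and 5 of them had no cortex peak. These 5 entered the test through gastrocnemius peaks alone, so a call at them could only be higher. The site at chr10:23225801-23243800, 106.1 kb downstream of the TSS and overlapping an exon, held 24.5 ± 7.77 CPM in all 10 gastrocnemius libraries (adjusted p = 5.98e-11), and the intronic site at chr10:23210401-23217200 held 10.9 ± 3.88 CPM in all 10 (adjusted p = 1.01e-09). Neither had a cortex peak. The site over the TSS rose from 8.84 ± 1.00 to 32.3 ± 7.63 CPM. H3K4me3 was also called inside Eya4 away from the TSS, at intronic sites chr10:23176201-23179600 in 10 and chr10:23236601-23238800 in 8 gastrocnemius libraries and in no cortex library. The latter overlaps the H3K27ac site at 106.1 kb.

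At Six4, 1 H3K27ac site of 28.8 kb (chr12:73089601-73118400) covered the whole gene and rose from 17.5 ± 3.87 to 95.2 ± 14.4 CPM (log2 2.45 ± 0.12, adjusted p = 1.79e-12). At Eya1 the site over the TSS (chr1:14289601-14311800) rose from 17.9 ± 7.49 to 61.6 ± 12.3 CPM, and a site 113 kb downstream (chr1:14183001-14196800) had peaks in 3 of 9 cortex and 10 of 10 gastrocnemius libraries. Eya2 held sites of opposite direction. The site at its 3′ end (chr2:165763801-165771400) held 11.2 ± 2.28 CPM in all 9 cortex libraries and had no gastrocnemius peak (adjusted p = 3.5e-10), while an intronic site 104 kb downstream of the TSS (chr2:165699401-165704000) had peaks in 7 gastrocnemius libraries and no cortex library (adjusted p = 0.000828). Another site, past the 3′ end (chr2:165777601-165897800), holds the TSS of another gene and was lower in gastrocnemius (-0.61 ± 0.05). At Six5 the sites that cover the TSS also hold TSSs of 2 other genes, so their differences (H3K4me3 1.01 ± 0.03, H3K27ac 0.42 ± 0.04) are not those of Six5 alone, and Bhmg1 overlaps Six5. Eya3 had 6 H3K27ac sites, of which 1, over the TSS, was called (0.81 ± 0.07). Across the 7 genes edgeR called 22 of 30 H3K27ac sites higher and 2 lower, against 32.3% higher of 48887, and 9 of 11 H3K4me3 sites higher and 2 lower, against 50.2% higher of 28383. Of the 30 H3K27ac sites, 10 had no cortex peak and entered the test through gastrocnemius peaks alone, as did 2 of the 11 H3K4me3 sites. Eya4 gave 8 and Eya2 6 of the 22, and sites of 1 gene are not independent.

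Eya2 has 3 curated TSSs, at positions 165595028, 165630345 and 165655298 of chromosome 2. H3K4me3 was called within 1 kb of the first alone, in 18 of the 19 libraries, and the other two had none. H3K27me3 was called at all 3, with 7.54 ± 0.81 and 4.06 ± 3.40 CPM at the second and 9.37 ± 1.42 and 7.00 ± 3.08 CPM at the third in cortex and gastrocnemius. H3K27ac was called at the third in 6 gastrocnemius libraries (0.759 ± 0.859 CPM) and no cortex library.

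Genes for known partners of Six-family and Eya proteins did not share a direction. The list, chosen with earlier results of these data known, held Dach1, Pax3, Pax7, Sobp and the Groucho-type corepressors Tle1 to Tle5. For H3K4me3 at the TSS 3 of 9 were higher and 6 lower (median -0.29, all genes -0.34), where 15.3% of all genes were higher and 60.4% lower. Under TMM scaling 3 were higher and 2 lower, and under DESeq2 size factors and DESeq2 4 were higher and 1 lower. Pax7, the satellite cell factor, had no cortex peak and 7.499 ± 1.12 CPM in gastrocnemius, Pax3 rose from 5.88 ± 0.78 to 12.1 ± 3.46 CPM, Tle4 rose from 25.8 ± 1.65 to 37.1 ± 7.01 CPM and Tle5 fell from 51.8 ± 12.1 to 25.8 ± 8.41 CPM. For H3K27ac 1 of 8 tested was higher and 4 lower (median -0.19, all genes -0.32), close to the 12.5% and 50.5% of all genes and so not particular to the list. Under TMM scaling, DESeq2 size factors and DESeq2 3 were higher and 2 lower. Pax7 again had no cortex peak, and Sobp (-0.67 ± 0.13), Tle3 (-0.56 ± 0.15) and Tle1 (-0.44 ± 0.16) were lower. For H3K27me3 3 of 5 tested were lower and 1 higher (median -0.36, all genes -0.02), where 19.3% of all genes were lower and 24.8% higher. Pax7 (-0.51 ± 0.15) and Pax3 (-0.36 ± 0.15) were lower, Tle2 had peaks in 4 cortex and no gastrocnemius libraries, and Tle3 had them in 1 cortex and 7 gastrocnemius libraries. Without the S number libraries 1 of the 5 was lower and none higher.

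Of 21 genes known to be bound or driven by Six-family factors, most of them myogenic regulators and fast fibre genes, 13 had more H3K4me3 at the TSS in gastrocnemius and 4 less, and 12 had more H3K27ac and 4 less. For H3K27me3, 10 of 12 tested were lower and none higher. Over all genes, 15.3% were higher and 60.4% lower for H3K4me3, 12.5% and 50.5% for H3K27ac, and 24.8% and 19.3% for H3K27me3. Under TMM scaling the H3K4me3 counts were 15 and 1 and the H3K27ac counts 16 and 1. The median of the list for H3K27ac was 0.87 (all genes -0.32), and for the other marks the median gene lacked a peak in 1 tissue and has no fold. Among the 4 genes with less H3K4me3, the fall was largest at the fibre marker Mylpf (log2 -0.76 ± 0.09). The troponin genes Tnnc2 and Tnni2, the creatine kinase gene Ckm and the myosin light chain gene Myl1 had no H3K4me3 peak in cortex and 30.7 ± 6.18, 23.7 ± 5.44, 21.7 ± 3.5 and 20.7 ± 5.61 CPM in gastrocnemius. For H3K27ac the same held at Myl1 (9.92 ± 1.60 CPM), the fast myosins Myh4 (6.15 ± 1.42) and Myh1 (5.29 ± 0.87) and the myogenic factor Myf5 (4.26 ± 1.36). H3K27me3 was called in cortex and in no gastrocnemius library at Myf5 (9 libraries), Tnnt3 (9), Tnni2 (8) and Myh1 (7). The lists overlap, since Pax7 and Myf5 mark satellite cells and Ckm, Myh4, Mylpf and Tnnt3 muscle fibres.

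Across the 6 mean log2(CPM + 1) values of a gene at the TSS (3 marks in 2 tissues), the genes most like each of the 7 were found by the root mean square difference. Eya3 was nearest to Ercc3 (0.03) and Tm9sf1 (0.03), which share high H3K4me3 and no H3K27me3. Eya4 was nearest to P2ry1 (0.09) and Tead4 (0.12), Six5 to Adamts5 (0.12) and Pald1 (0.13), and Eya2 to E330013P04Rik (0.13) and Septin9 (0.25). Six2 was nearest to 1700022H16Rik (0.18) and Tmem30b (0.21), Eya1 to Slc7a2 (0.19) and Gng11 (0.21), and Six4 to Creb5 (0.21) and Cmtm8 (0.21).

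The MEF3 letters TCAGGTTTC, which Six-family proteins are known to bind, were searched on both strands of the promoters and of the H3K27ac sites. They stand in 0.427% of the 31396 promoters and, of the 5 genes with entries, in Six4, between its 2 annotated TSSs. H3K27ac sites at the 7 genes held 9 matches in 0.552 Mb (16.3 per Mb), against 13.7 per Mb over all 48887 sites. Of the 9 matches, 5 lay in Eya3 sites (2 in the site over the TSS and 3 in sites that were not called), 2 in the Six4 site over the TSS, 1 in an Eya4 site and 1 in the Eya2 site past the 3′ end, which was lower in gastrocnemius. A match to these letters is a description and not a binding site. The matches at the Six4 promoter (chr12:73113320-73113360, plus strand) and in the Eya4 site that had H3K27ac in 2 cortex and 10 gastrocnemius libraries (chr10:23175955-23175995, minus strand) are shown with the letters in capitals.
Six4: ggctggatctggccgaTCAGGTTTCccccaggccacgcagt
Eya4: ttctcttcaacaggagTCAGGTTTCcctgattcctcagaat
That Eya4 site, at chr10:23172801-23193800, rose from 0.982 ± 1.95 CPM in cortex to 27.9 ± 9.79 CPM in gastrocnemius (adjusted p = 0.000528), and was chosen for the match after its values were seen.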

How the data were processed

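ChIP-seq of 3 marks was compared between 9 cortex and 10 gastrocnemius libraries per mark. Reads were mapped by the authors with bwa v0.7.17 to the mm10 build, and they removed reads of mapping quality under 1, duplicates and other chromosomes with SAMtools, and called peaks per library with epic2 (fragment and window 200, gap 2 or 3 for H3K27me3, FDR under 0.05, e 100, version not given in the sources used here). The deposited count of each peak is its raw number of reads. The deposited score of each peak, from epic2 by the authors, was used only to rank peaks.

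Peaks were joined to the curated RefSeq annotation of GRCm38.p6, the same build, with 1 TSS per gene on 23626 autosomal genes. A TSS window was 1 kb on either side, a gene body the rest of the gene (at least 500 bp), and a feature was tested where 3 or more libraries of a tissue had a peak. edgeR 4.0.16 (quasi-likelihood, R 4.3.3) was fitted across all features of a mark with autosomal reads in peaks as library size and Benjamini-Hochberg FDR under 0.1, and Fisher's exact test (SciPy 1.17.1) compared peak calls. Widths were compared by an exact permutation test per gene, adjusted over all genes. limma 3.58.1 and DESeq2 1.42.0 gave alternatives. The code was tested on simulated data.

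The animal tags in the deposited names pair 9 animals over the tissues. Deviations from the tissue mean hardly correlated within an animal (r from -0.09 to 0.10). The main fit does not pair the animals, so its p-values measure the spread between libraries within a tissue. In that spread animal, sex, depth and preparation cannot be told apart. Nothing states that libraries of an animal were prepared apart. The genes, lists and tests were chosen with earlier results of these data known. Named are the 7 genes, at most 4 genes per list and mark with the largest called change, 2 genes of nearest pattern per gene (none within 500 kb), genes overlapping them, at most 3 sites per gene and mark with the lowest adjusted p, and the markers. Alternatives were window, reads credited, scaling, tool, pseudocount, filter, peak threshold, FDR, block, S number, consensus and each library left out. One marker list is not reported here.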

Additional observations from a re-analysis of the deposited data

Results flagged for a closer look

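Of 72 groups of 9 or 10 library values that were not all equal, 7 held a library far from the others of its group, where chance flags about 5%. Eya4 H3K27ac over the gene body was 225 CPM in gastrocnemius replicate 6, against 67.0 to 118 CPM in the other libraries. Eya1 H3K4me3 over the gene body was 154 CPM in gastrocnemius replicate 6, against 79.9 to 119 CPM. Six4 H3K4me3 at the TSS was 61.0 CPM in gastrocnemius replicate 10, against 26.9 to 44.0 CPM. Eya2 H3K4me3 at the TSS was 10.3 CPM in gastrocnemius replicate 5, against 4.35 to 7.37 CPM. These 4 libraries carry an S number.

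Eya2 H3K27ac at the TSS was 2.36 CPM in cortex replicate 2, where no other cortex library had a peak, so without that library no fold can be given. Six5 H3K27me3 was 7.39 CPM at the TSS and 3.898 CPM over the gene body in cortex replicate 7, where no other library of either tissue had a peak.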

How the results depend on the processing

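Over the 38 member values tested by edgeR, the alternatives gave 1260 values, of which 1199 kept direction and side of the threshold, 33 kept direction and lost the call, 21 kept direction and gained it and 7 changed sign. The sign changed for Eya3 H3K27ac at the TSS (0.56) and Eya3 H3K4me3 over the body (-0.076) with all reads of overlapping peaks, and for Eya2 H3K27me3 at the TSS without S number libraries (0.027) and over the body with X in the scaling (0.057), without S number libraries (0.11), with the replicate block by animal (0.024) and without gastrocnemius replicate 5 (0.026). Leaving out 1 library moved the last from -0.075 to 0.026. With the block, calls were also lost for Eya3 H3K27ac at the TSS and Six5 H3K27ac over the body, and no other call changed. Under TMM scaling and with all reads of overlapping peaks, H3K4me3 at the TSS was called at 7 genes in place of 4. Requiring a peak in every library left 1 of the H3K27me3 calls at the TSS and 1 over the body in place of 4 each, and 7 H3K27ac and 5 H3K27me3 sites in place of 24 and 15, since genes and sites without a peak in 1 library are not tested. Fisher's test called H3K4me3 at 1 gene, Eya2, in place of 0 and H3K27ac at 1 in place of 2 without the lowest 25% of peaks, and H3K27ac at 1 without S number libraries. H3K4me3 peak calls gave 0 of 7 genes by Fisher's exact test and also 0 at an unadjusted p under 0.05. Leaving out 1 library kept every count of genes within 1.5 times, from 4 to 5 for H3K4me3 at the TSS and 6 to 7 for H3K27ac at the TSS and over the body.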
